A study of Mus musculus with 12 samples.

Results

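The MYC and MXD network is a set of transcription factors that share MAX as a partner, and it was described here through 10 genes, Myc, Max, Mxd1, Mxd3, Mxd4, Mxi1, Mnt, Mlx, Mga and Tfap4. They were chosen by name, with earlier results of these data known, as rows of the deposited FPKM table whose gene symbol was on this list. All 10 had a row among the 11022 genes of the table. RNA-seq had been carried out on cytotoxic T lymphocytes (CTL), the killer cells that CD8 T cells become, which came from LCMV-P14 TCR transgenic mice (female, 9 to 13 weeks old in the methods of the study), whose T cell receptor (TCR) recognises the gp33-41 peptide of a virus. The cells of lymph nodes or spleens of 3 mice were activated for 48 h with peptide, IL-2 and IL-12 and kept for 5 days in IL-2, and every group stayed in 20 ng/mL IL-2. There were 4 groups of 3 cultures. Unstimulated CTL received no peptide on day 7. The TCR group received 100 ng/mL gp33-41 peptide for 4 h. The TCR+PI3Kdi group received the peptide for 4 h with 10 µM IC87114, an inhibitor of the p110δ form of PI3K, a lipid kinase that acts downstream of the receptor. The TCR+MEKi group received the peptide for 4 h with 2 µM PD184252, an inhibitor of MEK, the kinase that activates ERK1/2. DMSO was the vehicle control. All cultures carried the transgenic TCR, and no sorting of the CTL before the 4 h stimulation was stated.

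MYC binds DNA only as a dimer with MAX, at E-box sequences of which CACGTG is the best known, and these dimers activate genes for ribosomes, amino acid uptake, nucleotide synthesis and cell growth. The MXD proteins (MXD1, MXD3, MXD4 and MXI1) and MNT pair with the same MAX and recruit SIN3 and histone deacetylases, so that they repress genes through the same E-boxes. MLX is a second hub that pairs with MNT, some MXD proteins and the glucose-sensing MONDO factors, MGA joins MAX in a variant Polycomb complex (PRC1.6), and TFAP4 is an E-box factor that is induced by MYC and keeps the growth programme of activated CD8 T cells running. In T cells MYC is known to rise quickly after antigen recognition and to be needed for the metabolic remodelling of the activated cell.

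Promoter windows from RefSeq (build GRCm38.p6, 250 bases before to 50 after a transcription start) were given for 8 of the 10 genes. Myc and Tfap4 had none, so the searches say nothing about them. For Mxi1 the windows numbered 3, so that 10 windows were searched. Both strands were searched for 6 motifs. The E-box CACGTG lay in 4 of the 10 windows, those of Max, Mxd4, Mnt and Mlx (at -40, window not shown), against 7.15% of all 32851 windows of the RefSeq table. The TFAP4 E-box CAGCTG lay in 1 window, that of Mga, against 16.3% of all windows. The forkhead sequence GTAAACA lay in 1 of the Mxi1 windows against 3.65% of all windows. The AP-1 sequence TGACTCA, the ETS sequence CCGGAAG and the STAT sequence TTCCNGGAA lay in 0 of the 10 windows, against 5.2%, 8.86% and 1.15% of all windows. A match is a run of letters and not evidence of binding. The windows of Max, Mxd4 and Mnt are shown because these genes of the network carry the E-box of the network itself, at -3, -219 and -123 from the start (first base of the match, no position 0), and that of Mxi1 because Mxi1 was the gene with the largest change in FPKM fold with the PI3K inhibitor. Capitals mark the E-box CACGTG in the first 3 and the forkhead sequence, at -231, in the Mxi1 window. They lie on chr12:76962199-76962498 (minus strand), chr5:34187661-34187960 (minus strand), chr11:74830674-74830973 (plus strand) and chr19:53329445-53329744 (plus strand), and each is written 5′ to 3′ on the strand of its gene.
Max: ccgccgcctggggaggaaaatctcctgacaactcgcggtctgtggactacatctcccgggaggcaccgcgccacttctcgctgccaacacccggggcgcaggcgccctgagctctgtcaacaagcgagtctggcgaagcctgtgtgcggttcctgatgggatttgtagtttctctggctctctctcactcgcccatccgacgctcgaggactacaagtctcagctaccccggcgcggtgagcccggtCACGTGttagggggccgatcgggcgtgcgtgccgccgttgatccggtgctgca
Mxd4: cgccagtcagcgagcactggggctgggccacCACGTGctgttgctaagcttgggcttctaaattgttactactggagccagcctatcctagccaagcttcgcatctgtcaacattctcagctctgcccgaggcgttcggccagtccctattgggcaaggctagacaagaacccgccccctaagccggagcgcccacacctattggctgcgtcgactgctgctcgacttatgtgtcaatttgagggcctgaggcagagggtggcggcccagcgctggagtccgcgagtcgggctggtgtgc
Mnt: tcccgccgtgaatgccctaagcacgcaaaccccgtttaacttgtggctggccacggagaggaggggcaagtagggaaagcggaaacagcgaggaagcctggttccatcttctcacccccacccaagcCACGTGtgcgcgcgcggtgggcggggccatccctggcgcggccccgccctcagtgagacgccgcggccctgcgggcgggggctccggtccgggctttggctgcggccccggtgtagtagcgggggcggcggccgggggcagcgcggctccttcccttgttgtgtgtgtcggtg
Mxi1: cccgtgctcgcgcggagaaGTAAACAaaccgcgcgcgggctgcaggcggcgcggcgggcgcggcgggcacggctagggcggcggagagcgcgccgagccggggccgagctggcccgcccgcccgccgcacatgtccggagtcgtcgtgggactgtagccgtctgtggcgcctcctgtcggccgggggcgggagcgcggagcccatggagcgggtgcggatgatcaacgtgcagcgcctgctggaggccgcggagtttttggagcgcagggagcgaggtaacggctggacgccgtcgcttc

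Levels below are FPKM, a read count scaled for gene length and library size, and a change is a log2 fold change on log2(FPKM + 0.1), with its standard error (SE), between group means of 3 cultures. Adjusted p-values come from limma with Benjamini-Hochberg adjustment over all 11022 genes. A gene passed the test at an adjusted p below 0.05, and 2-fold changes are those that also passed a fold change of 2. Replicates of a group were separate cultures, and their log levels correlated across genes at 0.993 to 0.995. All 9 markers of CD8 T cells had rows, with summed levels of 11193 to 17624 FPKM, 0 of 5 B cell and 0 of 5 erythroid markers had rows, and Cd68 was the only myeloid marker of 7 with a row. Cd4 was at 0.44 to 0.99 FPKM in unstimulated cells, 2.54 to 2.87 after TCR stimulation, 1.96 to 3.65 with the PI3K inhibitor and 0.28 to 0.66 with the MEK inhibitor, and 2 of 3 NK cell markers had rows and summed to 1.77 to 6.65 FPKM. These markers moved with the groups at levels far below those of CD8 T cells, and their part in the results was not tested. In these bulk cultures, fewer cells that use a gene and less RNA per cell cannot be told apart. The estimated depth was 7860000 to 13260000 reads a culture, and FPKM summed to 470420 to 495945 in unstimulated cells and 620715 to 666922 after TCR stimulation. Setting all samples to a common sum (the TPM scale) moved the median change of all genes from -0.01 to -0.42 after TCR stimulation, and to 0.20, 0.27 and 0.07 in the other 3 comparisons.

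Myc was the most abundant of the 10 genes in every group, Max the second and Mlx the third, and Mxd3 or Mxd4 the least. Of the 10 genes, 8 passed the test after TCR stimulation, 3 higher and 5 lower. Myc, Mnt and Mga rose, Mxd1, Mxd3, Mxd4, Mxi1 and Tfap4 fell, and Max and Mlx did not pass. Among all genes 33.6% passed as higher and 34.9% as lower, so that the count of 8 stands beside a table in which most genes passed. At 2-fold, 1 gene was higher (Myc) and 2 lower (Mxd3 and Mxd4), against 8.87% of all genes higher and 11.1% lower. The plot of the levels in every culture shows these groups side by side.

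**Figure D1:**
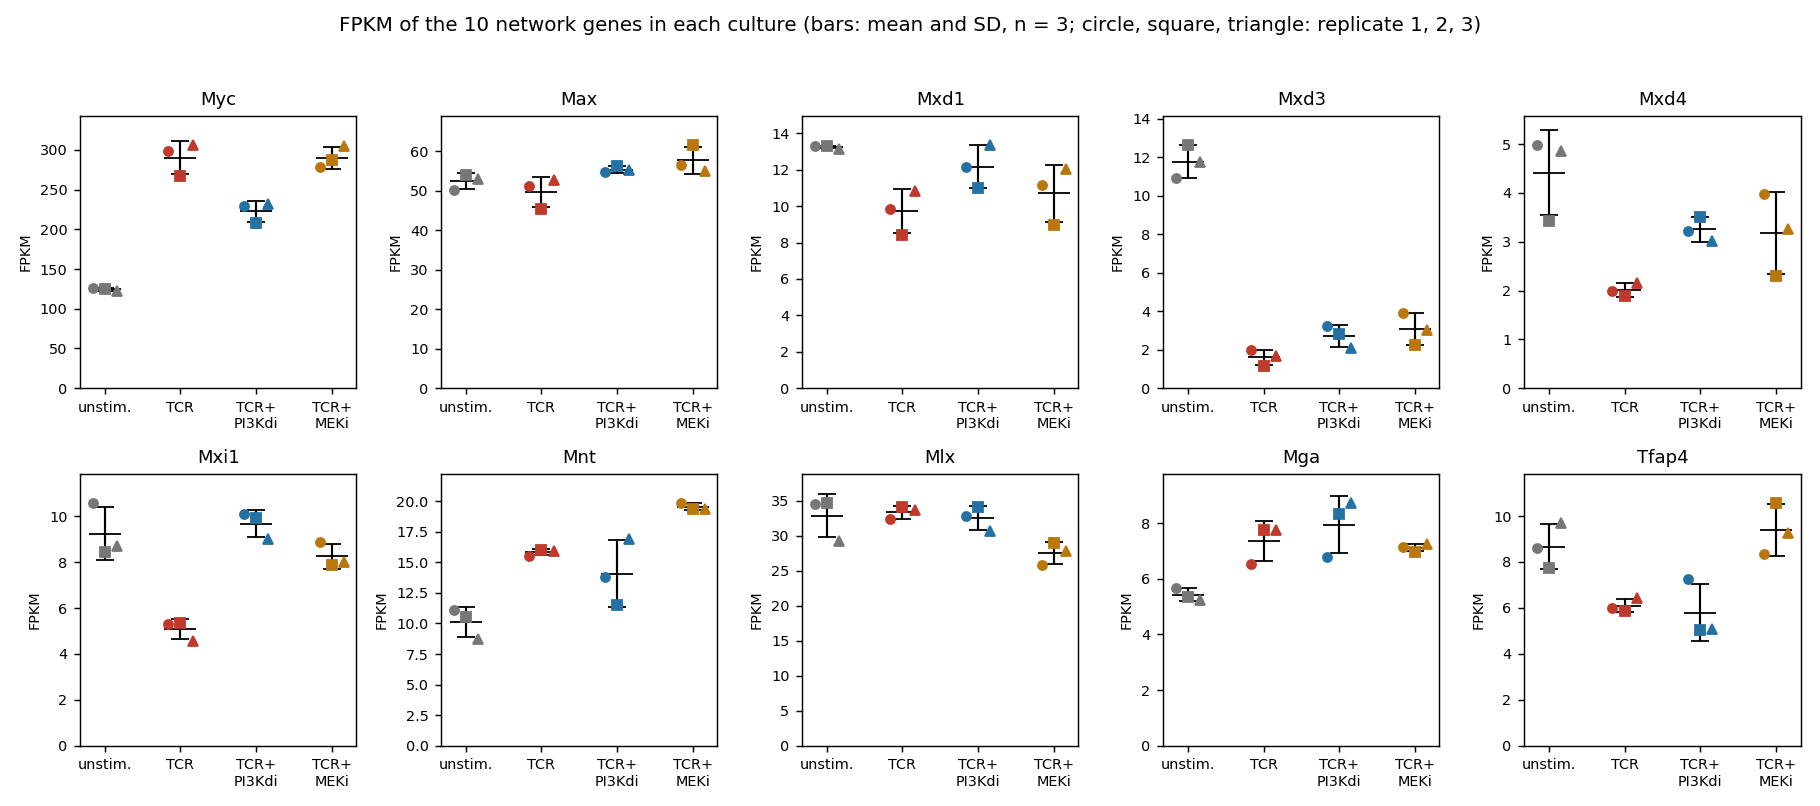
FPKM (y axis, from 0) of each of the 10 genes in the 4 groups, with a symbol for each culture and bars for the mean and SD of 3 cultures. The 3 TCR cultures lay above all unstimulated cultures for Myc, Mnt and Mga and below them for Mxd1, Mxd3, Mxd4, Mxi1 and Tfap4.

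Myc (chromosome 15, 61985341 to 61990361), which encodes the activating subunit, stood at 126, 125 and 122 FPKM in the unstimulated cultures and at 298, 267 and 306 after TCR stimulation. The groups did not overlap, and mean levels were 125 ± 1.92 and 290.4 ± 20.9 (SD, n = 3). With the PI3K inhibitor it was at 229, 208 and 232 FPKM, and with the MEK inhibitor at 278, 287 and 305. The PI3K inhibitor cultures lay between the unstimulated and the TCR cultures without overlap, whereas the MEK inhibitor cultures overlapped the TCR cultures. The rise after TCR stimulation was 2.33-fold (log2 1.22, SE 0.06, adjusted p = 1.97e-10). Rescaling to TPM (log2 0.81) or quantile normalisation (0.97) brought it inside 2-fold, still above the median of all genes. With the PI3K inhibitor Myc was 0.768 of its TCR level (log2 -0.38, SE 0.06, adjusted p = 0.000461), in all 3 same-numbered cultures. With the MEK inhibitor the change was 0.00 (95% interval -0.13 to 0.13, adjusted p = 0.992), while rescaling to TPM gave 0.26 (adjusted p = 0.00166) and quantile normalisation 0.16 (adjusted p = 0.031), beside medians of all genes of 0.27 and 0.02. Myc was higher with the MEK than with the PI3K inhibitor by a log2 value of 0.38 (SE 0.06, adjusted p = 0.000308). Myc held 3053 to 7008 estimated reads in each library.

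Max (chromosome 12, 76937269 to 76962323), the common partner, stood at 50.3, 54.1 and 52.9 FPKM unstimulated and at 51.1, 45.3 and 52.6 after TCR stimulation. These groups overlapped. It was at 54.7, 56.2 and 55.2 with the PI3K inhibitor and at 56.4, 61.6 and 55.1 with the MEK inhibitor, and both sets lay above the TCR cultures. The change after TCR stimulation was -0.08 (95% interval -0.22 to 0.05, adjusted p = 0.266), and -0.49 on the TPM scale (adjusted p = 3.68e-06), near the median of all genes there. With the MEK inhibitor Max rose by 0.22 (SE 0.06, adjusted p = 0.0143), and it no longer passed without TCR replicate 2 (adjusted p = 0.0711) or without MEK inhibitor replicate 2 (0.0722). With the PI3K inhibitor the change was 0.16 (adjusted p = 0.0768).

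The MXD family, the repressors that exchange with MYC on MAX, fell after TCR stimulation, and 4 of its 4 genes passed the test as lower, as did 34.9% of all genes tested. Mxd3 (chromosome 13, 55325170 to 55329900), a family member known from dividing cells, stood at 10.9, 12.6 and 11.8 FPKM unstimulated and at 1.97, 1.16 and 1.65 after TCR stimulation. The groups lay far apart. Mxd3 fell by 2.84 on the log2 scale, to 0.140 of the unstimulated level (SE 0.21, adjusted p = 1.46e-08), and it passed 2-fold in 14 of 14 alternatives. It was at 3.23, 2.80 and 2.09 with the PI3K inhibitor and at 3.91, 2.25 and 3.03 with the MEK inhibitor. All 6 of these cultures lay above the TCR cultures and below the unstimulated ones. The rise against TCR was 0.74 with the PI3K inhibitor (SE 0.21, adjusted p = 0.0184) and 0.90 with the MEK inhibitor (SE 0.21, adjusted p = 0.00398). The first no longer passed without TCR replicate 2 (adjusted p = 0.0762), PI3K inhibitor replicate 1 (0.0663) or replicate 2 (0.0578), and the second passed 2-fold without TCR replicate 1 (log2 1.06) or MEK inhibitor replicate 2 (1.10) and on the TPM scale (1.17). These low levels rested on as few as 15.3 estimated reads in a library, where counting alone gives an SD of 25.6%. Prelid1, on the other strand, shares 105 exon bases with Mxd3 (7.9% of its exons) and was at 294 to 388 FPKM in the 12 cultures, so that some reads could belong to either gene.

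Mxd4 (chromosome 5, 34176580 to 34187710), a family member known from resting and differentiating cells, stood at 4.98, 3.42 and 4.85 FPKM unstimulated and at 2.00, 1.88 and 2.16 after TCR stimulation. The groups did not overlap, and Mxd4 fell by 1.08 on the log2 scale (SE 0.18, adjusted p = 8.67e-05). It stayed inside 2-fold without unstimulated replicate 1 (log2 -0.98), with a pseudocount of 1 (-0.83) and after quantile normalisation (-0.98). It was at 3.22, 3.51 and 3.02 with the PI3K inhibitor and at 3.98, 2.30 and 3.25 with the MEK inhibitor. Each of these cultures was above the highest TCR culture. The change against TCR was 0.66 (SE 0.18, adjusted p = 0.0145) with the PI3K inhibitor and 0.60 (SE 0.18, adjusted p = 0.0176) with the MEK inhibitor. The first lost its call without PI3K inhibitor replicate 2 (adjusted p = 0.055), the second without TCR replicate 2 (0.0538), MEK inhibitor replicate 1 (0.0909) or replicate 3 (0.056). A gene on the other strand, Gm42846, shares 514 exon bases with Mxd4 (13.2% of its exons), and its level was not analysed here.

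Mxi1 (chromosome 19, 53310128 to 53373293), a repressor that binds MAX like the others, stood at 10.6, 8.45 and 8.70 FPKM unstimulated and at 5.29, 5.36 and 4.57 after TCR stimulation. The groups did not overlap. Mxi1 fell by 0.85 on the log2 scale (SE 0.10, adjusted p = 3.15e-06), and this passed 2-fold on the TPM scale (-1.26). It was at 10.1, 9.92 and 8.99 with the PI3K inhibitor and at 8.87, 7.87 and 8.02 with the MEK inhibitor. The PI3K inhibitor cultures overlapped the unstimulated range, and all 6 inhibitor cultures lay above the TCR cultures. The change against TCR was 0.92 with the PI3K inhibitor, to 1.89-fold (SE 0.10, adjusted p = 2.28e-05), and 0.69 with the MEK inhibitor (SE 0.10, adjusted p = 0.000123). The first passed 2-fold on the TPM scale (1.11). Mxi1 passed the test against TCR in 14 of 14 alternatives with either inhibitor. Gm10197, on the other strand, shares 194 exon bases with it (2.9% of its exons) and was not analysed here.

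Mxd1 (chromosome 6, 86647044 to 86669234), a repressor known from cells that leave the cell cycle, stood at 13.3, 13.3 and 13.2 FPKM unstimulated and at 9.87, 8.43 and 10.9 after TCR stimulation. The groups did not overlap and Mxd1 fell by 0.45 on the log2 scale (SE 0.11, adjusted p = 0.00257). It was at 12.2, 10.98 and 13.4 with the PI3K inhibitor and at 11.2, 8.97 and 12.02 with the MEK inhibitor. The PI3K inhibitor cultures lay above the TCR cultures, and the MEK inhibitor cultures overlapped them. The change against TCR was 0.33 with the PI3K inhibitor (SE 0.11, adjusted p = 0.048) and 0.14 with the MEK inhibitor (adjusted p = 0.371). The first passed in 7 of 14 alternatives, and it was lost without TCR replicate 1 (adjusted p = 0.0864), TCR replicate 2 (0.173), PI3K inhibitor replicate 1 (0.0843) or replicate 3 (0.173). With the replicate number as a block in the fit its adjusted p was 0.0109, but whether a number marks a mouse is not stated.

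Mnt (chromosome 11, 74830806 to 74845725), the broadly expressed repressor of the set, moved the other way. It stood at 11.1, 10.6 and 8.70 FPKM unstimulated, at 15.6, 16.04 and 15.9 after TCR stimulation, at 13.8, 11.5 and 16.9 with the PI3K inhibitor and at 19.9, 19.4 and 19.4 with the MEK inhibitor. The MEK inhibitor cultures were the highest of the 12 and overlapped no other group. The rise after TCR stimulation was 0.65 (SE 0.12, adjusted p = 0.000156), and 0.24 on the TPM scale (adjusted p = 0.0971) against a median of all genes of -0.42. Mnt was higher with the MEK than with the PI3K inhibitor by 0.49 (SE 0.12, adjusted p = 0.0054). Against TCR it changed by 0.30 with the MEK inhibitor (SE 0.12, adjusted p = 0.054, and 0.00373 when the 2 groups were fitted alone). On the TPM scale this was 0.56 (adjusted p = 0.00161), beside a median of all genes of 0.27. With the PI3K inhibitor Mnt changed by -0.19 against TCR (adjusted p = 0.256, and 0.0394 without PI3K inhibitor replicate 3).

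Mlx (chromosome 11, 101086707 to 101092207), the second hub, stood at 34.5, 34.7 and 29.3 FPKM unstimulated, at 32.3, 34.1 and 33.6 after TCR stimulation, at 32.8, 34.1 and 30.6 with the PI3K inhibitor and at 25.9, 29.0 and 27.8 with the MEK inhibitor. Only the MEK inhibitor cultures stood apart, below all others. The change after TCR stimulation was 0.03 (95% interval -0.13 to 0.18, adjusted p = 0.762), and -0.39 on the TPM scale, near the median of all genes. With the MEK inhibitor it fell by 0.27 against TCR (adjusted p = 0.00824), which on the TPM scale was -0.01 (adjusted p = 0.901). It was also lower against the PI3K inhibitor (log2 -0.24, adjusted p = 0.0228), a call lost without PI3K inhibitor replicate 1 (adjusted p = 0.0524) or 2 (0.088) or MEK inhibitor replicate 1 (0.0962) or 3 (0.0534). Psmc3ip, on the other strand, shares 385 exon bases with Mlx (19.4% of its exons) and was at 16.6 to 18.7 FPKM unstimulated and 6.43 to 9.36 in the other groups.

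Mga (chromosome 2, 119872503 to 119970129), a large MAX partner, stood at 5.68, 5.33 and 5.24 FPKM unstimulated and at 6.51, 7.76 and 7.75 after TCR stimulation. The groups did not overlap, and the rise was 0.43 (SE 0.10, adjusted p = 0.002), which became 0.02 on the TPM scale (adjusted p = 0.883). It was at 6.78, 8.32 and 8.73 with the PI3K inhibitor and at 7.15, 6.97 and 7.23 with the MEK inhibitor, and both sets overlapped the TCR range. Neither inhibitor comparison passed the test (log2 0.11 and -0.04 against TCR).

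Tfap4 (chromosome 16, 4544661 to 4560762), the MYC-induced factor, stood at 8.60, 7.72 and 9.69 FPKM unstimulated and at 6.01, 5.86 and 6.42 after TCR stimulation. The groups did not overlap, and Tfap4 fell by 0.50 on the log2 scale while Myc rose (SE 0.14, adjusted p = 0.00445). It was at 7.24, 5.06 and 5.09 with the PI3K inhibitor and at 8.34, 10.6 and 9.27 with the MEK inhibitor. The MEK inhibitor cultures overlapped the unstimulated range and lay above every TCR and PI3K inhibitor culture. Against TCR the MEK inhibitor raised it by 0.61 (SE 0.14, adjusted p = 0.00277), and against the PI3K inhibitor by 0.70 (SE 0.14, adjusted p = 0.00124), both in 14 of 14 alternatives, and the PI3K inhibitor changed it by -0.09 (95% interval -0.38 to 0.20, adjusted p = 0.664).

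With the PI3K inhibitor, 4 of the 10 genes passed as higher than TCR (Mxi1, Mxd3, Mxd4 and Mxd1) and 1 as lower (Myc), against 12.7% of all genes higher and 12.8% lower, and 0 passed 2-fold against 0.499% higher and 1.38% lower. With the MEK inhibitor, 5 passed as higher (Mxi1, Mxd3, Mxd4, Max and Tfap4) and 1 as lower (Mlx), against 18.9% and 18.2%, and 0 passed 2-fold against 0.98% and 2.51%. Both inhibitor comparisons share the TCR cultures, so their values stand side by side and are not independent. Between the inhibitors, 3 genes were higher with the MEK inhibitor (Myc, Tfap4 and Mnt) and 1 lower (Mlx), against 14.5% and 14.4% of all genes, and 0 passed 2-fold against 1.39% and 1.71%. The plot of the fitted changes holds all 40 values.

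**Figure D2:**
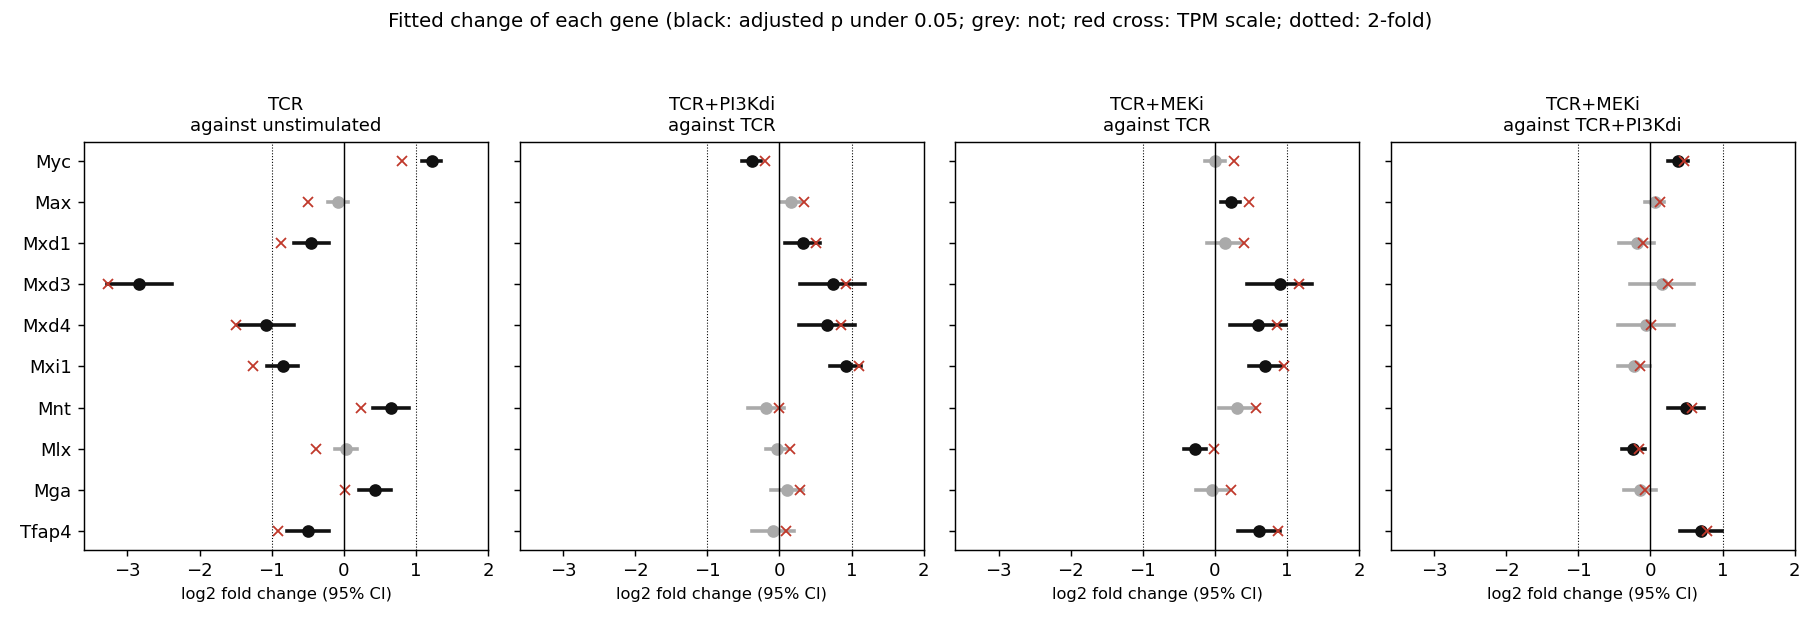
Log2 fold change (x axis, with 95% interval) of each gene in the 4 comparisons, black where the adjusted p was below 0.05 and grey where not, with red crosses for the TPM scale and dotted lines at 2-fold. After TCR stimulation Myc lay at 1.22 and Mxd3 at -2.84, and the TPM scale moved all values of that panel to the left.

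The balance of the transcripts was described by ratios of FPKM, with no test. Myc over the summed MXD family and Mnt was 2.55 ± 0.0682 (SD, n = 3) unstimulated, 8.48 ± 0.317 after TCR stimulation, 5.33 ± 0.0936 in TCR+PI3Kdi and 6.52 ± 0.633 in TCR+MEKi, and the 4 groups did not overlap. The summed MXD family fell from 38.7 ± 1.00 to 18.4 ± 1.36 FPKM after TCR stimulation, and stood at 27.8 ± 0.821 and 25.2 ± 3.40 with the PI3K and MEK inhibitors. Mnt made up 20.7% of the summed repressors unstimulated, 46.3% after TCR stimulation, 33.4% in TCR+PI3Kdi and 43.8% in TCR+MEKi, whereas Mxd3 made up 24.2%, 4.63%, 6.51% and 6.78%. Myc over Max was 2.38, 5.85, 4.03 and 5.05 in the same order. A ratio within a sample is the same on the TPM scale.

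**Figure D3:**
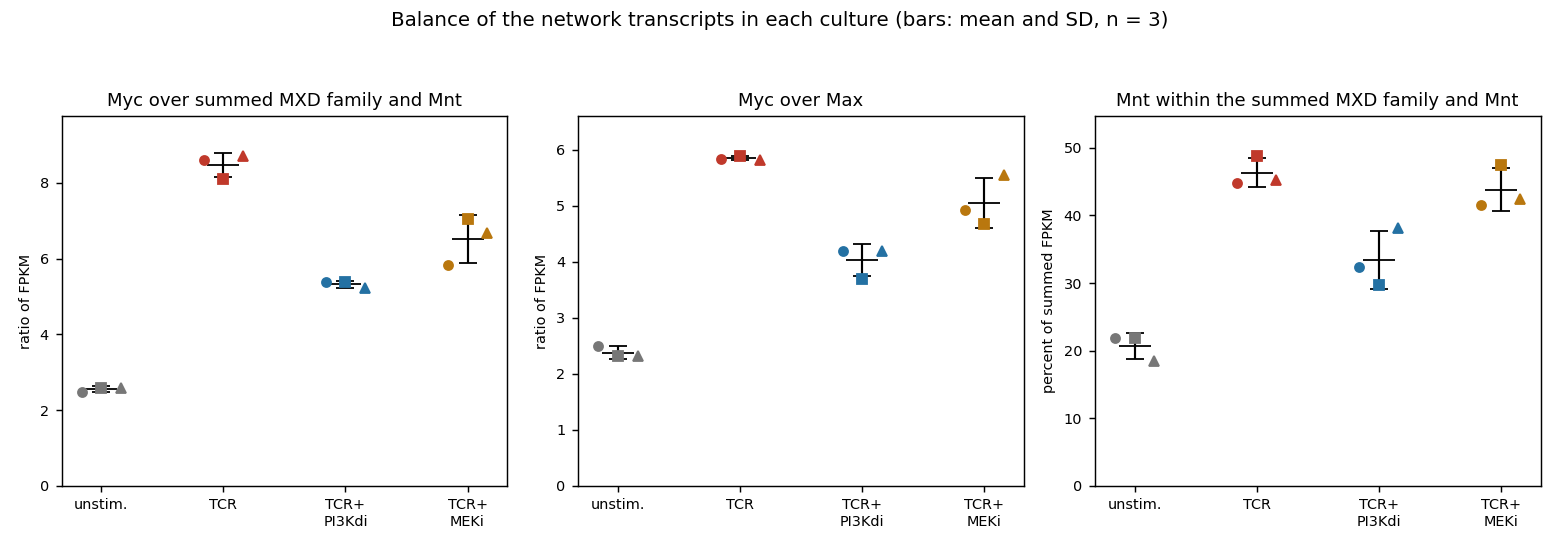
Ratio of Myc to the summed MXD family and Mnt, ratio of Myc to Max, and percent of Mnt within the summed repressors (y axes, from 0) in the 4 groups, with a symbol for each culture and bars for the mean and SD of 3 cultures. The Myc to repressor ratio was lowest unstimulated (2.55) and highest after TCR stimulation (8.48), with the inhibitor groups between.

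Of 31 genes that MYC is known to induce, all with a row, 25 passed as higher and 3 as lower after TCR stimulation, beside 33.6% and 34.9% of all genes, with a median change of 0.59 against -0.01 over all genes. This list and those below were chosen with earlier results of these data known, so their counts beside all genes are descriptions and not tests. Slc3a2 and Slc7a5, the chains of an amino acid transporter, rose from 79.2 ± 4.43 to 197 ± 14.4 FPKM and from 121 ± 1.91 to 272 ± 7.42, and Rrp9, a ribosome assembly factor, from 66.0 ± 1.51 to 135 ± 6.58. These were the only 3 to pass 2-fold (log2 1.32, 1.17 and 1.03), beside 8.87% of all genes higher at 2-fold. None did on the TPM scale, where 17 were higher and 8 lower, beside 15.3% and 60.8% of all genes (median 0.18 against -0.42). Cdk4 and Slc2a1, a cell cycle kinase and a glucose transporter, were singled out after their values were seen, and both fell (log2 -0.43 and -0.39). With the PI3K inhibitor 22 were lower and 1 higher, beside 12.8% and 12.7% of all genes (median -0.29 against 0.02). On the TPM scale 11 were lower and 1 higher, beside 4.95% and 34.5% of all genes (median -0.11 against 0.20). With the MEK inhibitor 19 were lower and 1 higher, beside 18.2% and 18.9% of all genes (median -0.21 against 0.01). Rescaling to TPM gave 0 lower and 12 higher, beside 5.79% and 50.2% of all genes (median 0.06 against 0.27). Quantile normalisation gave 4 lower and 7 higher (median -0.03 against 0.02). The direction of the calls thus turned with the scaling, while the list median stayed below that of all genes in each of these settings. Between the inhibitors 12 were higher with the MEK inhibitor and 2 lower, beside 14.5% and 14.4% of all genes (median 0.11 against -0.01), and 19 and 1 on the TPM scale, beside 21% and 9.19%.

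**Figure D4:**
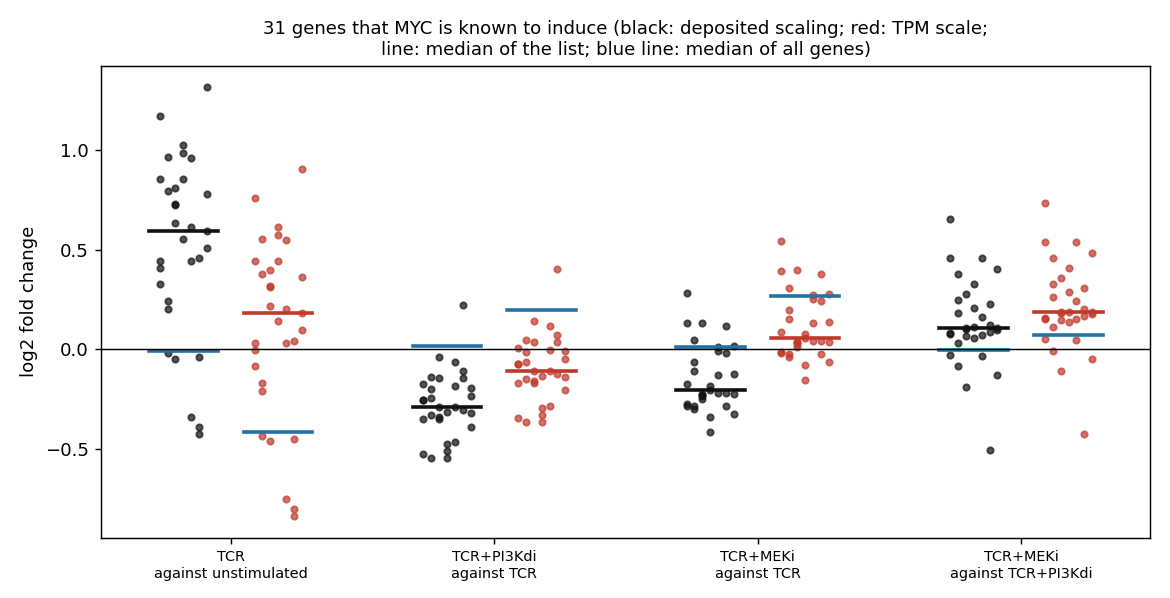
Log2 fold change (y axis) of the 31 genes that MYC is known to induce in the 4 comparisons, black with the deposited scaling and red on the TPM scale, with lines for the list median and blue lines for the median of all genes. After TCR stimulation the list median was 0.59 with the deposited scaling and 0.18 on the TPM scale, and in the MEK inhibitor comparison it went from -0.21 to 0.06.

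Of 6 genes that MYC is known to repress, 4 passed as higher and 1 as lower after TCR stimulation, beside 33.6% and 34.9% of all genes (median 0.71 against -0.01). On the TPM scale 4 were higher and 2 lower, beside 15.3% and 60.8% of all genes. Ndrg1, a stress-responsive gene, rose from 16.1 ± 3.06 to 218 ± 10.97 FPKM (log2 3.76, adjusted p = 9.04e-14) and was at 105 ± 5.49 with the MEK inhibitor (log2 -1.06 against TCR, adjusted p = 1.4e-06), a fall that stayed inside 2-fold after quantile normalisation (-0.89) or rescaling to TPM (-0.80). Gadd45a passed 2-fold at low levels (0.800 ± 0.605 to 1.69 ± 0.282 FPKM, log2 1.19) but not on the TPM scale (0.86), and Cdkn1b, an inhibitor of cyclin-dependent kinases, fell from 9.79 ± 0.891 to 4.10 ± 0.370 (log2 -1.23, adjusted p = 1.82e-07). A list of 6 held relatives of MYC and MLX partners together with Mycbp and Mycbp2, which are named for binding MYC and are not relatives. Of its 4 measured genes, 2 were higher and 1 lower, beside 33.6% and 34.9% of all genes. On the TPM scale 1 was higher and 1 lower, beside 15.3% and 60.8%. Mycn, which encodes a close relative of MYC, fell from 63.3 ± 5.67 to 22.8 ± 1.80 FPKM (log2 -1.47, adjusted p = 7.47e-10), whereas Mlxip (log2 0.61, adjusted p = 1.68e-05) and Mycbp (0.66, adjusted p = 1.65e-05) passed as higher and Mycbp2 did not pass (0.31, adjusted p = 0.0566). Of 3 measured genes that MLX and its partners are known to induce, 1 was higher and 1 lower, beside 33.6% and 34.9% of all genes. On the TPM scale 0 were higher and 2 lower, beside 15.3% and 60.8%. Txnip, which restrains glucose uptake, fell from 165 ± 11.2 to 69.9 ± 3.46 FPKM (log2 -1.24, adjusted p = 4.95e-11), Klf10 passed as higher (log2 0.19, adjusted p = 0.0342, but -0.22 on the TPM scale), and Arrdc4 did not pass (0.49, adjusted p = 0.0557). Of 12 partners of MGA and MAX in PRC1.6, 2 were higher and 6 lower, beside 33.6% and 34.9% of all genes (median -0.17 against -0.01). On the TPM scale 1 was higher and 10 lower, beside 15.3% and 60.8% of all genes (median -0.58 against -0.42). Cbx3 (51.7 ± 3.26 to 16.9 ± 1.83 FPKM, log2 -1.61) and Ehmt2 (28.0 ± 0.580 to 11.5 ± 0.553, log2 -1.28), a chromatin reader and a histone methyltransferase, passed 2-fold, beside 11.1% of all genes lower at 2-fold. The 15 activating cofactors of MYC had 5 higher and 3 lower (median 0.01), the 17 SIN3 and HDAC co-repressors 4 and 6 (median -0.09), and the 14 measured of 15 regulators of MYC turnover 4 and 5 (median -0.04), with 0 past 2-fold in each. Over all genes 33.6% were higher and 34.9% lower, so the shares of these 3 lists in each direction were near or below the background. At 2-fold, 8.87% of all genes were higher and 11.1% lower. The TPM scale gave 3 and 9 for the cofactors with 0 past 2-fold, and 1 and 13 for the co-repressors with 2 of them lower past 2-fold. For the turnover genes it gave 3 and 10 with 3 lower past 2-fold. Over all genes 15.3% were higher and 60.8% lower on that scale, and 2994 of 11022 passed 2-fold in either direction. With the inhibitors and the deposited scaling, no gene of these other lists passed 2-fold except Ndrg1, with the MEK inhibitor against TCR. At an adjusted p below 0.05, higher and lower genes with the PI3K inhibitor were 2 and 2 (repressed by MYC), 0 and 1 (relatives and MYC-binding) and 1 and 0 (MLX). They were 2 and 0 (PRC1.6), 1 and 2 (cofactors), 1 and 1 (co-repressors) and 2 and 3 (turnover), beside 12.7% and 12.8% of all genes. With the MEK inhibitor the counts were 2 and 2, 1 and 1, 1 and 0, 4 and 1, 1 and 3, 2 and 3, and 3 and 2 in that order, beside 18.9% and 18.2%. Between the inhibitors Ndrg1 stayed inside 2-fold (log2 -0.72). Over all genes 0.499% were higher and 1.38% lower at 2-fold with the PI3K inhibitor against TCR. The shares were 0.98% and 2.51% with the MEK inhibitor against TCR, and 1.39% and 1.71% between the inhibitors. On the TPM scale Ndrg1 did not pass 2-fold with the MEK inhibitor against TCR. Cdkn1b (log2 1.00, adjusted p = 7.17e-06) and Ehmt2 (1.21, adjusted p = 7.59e-09) passed 2-fold as higher there, beside 578 of 11022 genes in either direction.

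The genes most like Myc in pattern over the 12 cultures, by the smallest root-mean-square difference of centred log2 values among 10232 genes, were Slc3a2 (0.0793), Golim4 (0.084), Nfe2l1 (0.0856), Slc19a1 (0.095) and Mthfd2 (0.0956). Those most like Mxd1 were Tmem50a (0.114), Clstn1 (0.116), Ccdc64 (0.118), Gtl3 (0.119) and Clk2 (0.121). Those most like Mxd4 were Cdkn1b (0.164), Klraq1 (0.174), Dhrs1 (0.176), Tceanc (0.192) and Palb2 (0.197), and those most like Tfap4 were Htra2 (0.110), H2afx (0.133), 6330416G13Rik (0.140), Pigv (0.149) and Anxa11 (0.161). The nearest patterns of Myc lay closer than those of the other 3 genes. Counting noise enters this difference, and its part was not tested. The highest estimated counting SD was 1.8% for Myc, 5.1% for Mxd1, 11.8% for Mxd4 and 9.4% for Tfap4. Slc3a2 was at 79.2 FPKM unstimulated, 197 after TCR stimulation, 150.4 in TCR+PI3Kdi and 199 in TCR+MEKi, so that it was lowest unstimulated and between in TCR+PI3Kdi, as Myc was.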

How the data were processed

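RNA-seq was carried out on 12 CTL cultures (4 groups of 3), grouped by the treatment in the labels. The authors deposited 1 table of FPKM values for 11022 genes. Per the labels, reads came from stranded mRNA libraries, and the submitters' processing notes name STAR 2.4.2a, Subread 1.5.0, edgeR and the mm10 build. Whether counting used strand was not given in the sources used here. No value column was left unassigned (0), and no raw counts were used here. The members and gene lists were chosen with earlier results of these data known.

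FPKM values were analysed as log2(FPKM + 0.1) in limma 3.58.1 (R 4.3.3; trended empirical Bayes, 1 mean per group over all 12 samples, 4 comparisons), with Benjamini-Hochberg adjustment over all genes. The code was tested on simulated data. Python 3.11.15 with pandas 2.3.3 and matplotlib 3.10.9 did the rest. Read depth was inferred from the spacing of low FPKM values (exon lengths of 10079 genes). At that depth 58.3% to 62.8% of low values lay within 0.15 of whole reads, so read numbers are approximate and no count test was run.

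Same-numbered cultures deviated together: the correlation of their deviations from group means was 0.239 to 0.451 for the PI3K inhibitor with TCR, 0.122 to 0.182 for the MEK inhibitor with TCR and 0.137 to 0.149 between the inhibitors. For TCR with unstimulated cells it was 0.004 to 0.153. The study used 3 mice, and whether a number marks a mouse is not stated. All 10 genes were named, with up to 4 list genes past 2-fold per list and comparison by largest change, and the 5 nearest patterns of 4 genes. Alternatives were pseudocounts of 1 and 0.01, a mean FPKM of at least 1, a common FPKM sum (TPM scale), quantile normalisation, the replicate block, the compared groups alone, no trend, and each library left out. The common sum was 1000000. It had first been the mean FPKM sum of the samples and was changed after its results had been seen, which moved no log2 value of the 10 genes by more than 0.0411 and changed 0 of 40 calls.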

Additional observations from a re-analysis of the deposited data

How the results depend on the processing

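Scaling had the largest effect. On the TPM scale the change of Mlx turned to -0.39 after TCR stimulation and 0.144 with the PI3K inhibitor, Tfap4 to 0.0890 with the PI3K inhibitor, Mga to 0.220 with the MEK inhibitor, and Mxd4 to 0.0139 between the inhibitors. After TCR stimulation 8 genes then passed, only Myc as higher, and 3 passed 2-fold, all as lower (Mxd3, Mxd4 and Mxi1). With the PI3K inhibitor 1 passed 2-fold as higher. With the MEK inhibitor 8 passed as higher, 0 as lower and 1 at 2-fold, and 0 were lower between the inhibitors. Quantile normalisation turned Mlx to -0.0358 after TCR stimulation and 0.00107 with the PI3K inhibitor, and left 0 genes higher and 1 lower at 2-fold after TCR stimulation. A pseudocount of 1 left 1 gene lower at 2-fold. With each library left out, genes lower at 2-fold after TCR stimulation numbered 1 to 2, genes higher with the PI3K inhibitor 2 to 4 and lower 1 to 2, genes higher with the MEK inhibitor 3 to 5 and at 2-fold 0 to 1, and genes lower between the inhibitors 0 to 1. Changes near 0 then turned sign: Mlx ranged from -0.0541 to 0.0685 after TCR stimulation and from -0.0731 to 0.00365 with the PI3K inhibitor, Myc from -0.0589 to 0.0405 and Mga from -0.122 to 0.00250 with the MEK inhibitor, and between the inhibitors Mxd3 from -0.0281 to 0.357 and Mxd4 from -0.238 to 0.145. The replicate block changed no call of the 10 genes. For the PI3K inhibitor against TCR the block gave adjusted p-values of 0.0109 for Mxd1, 0.00922 for Mxd3 and 0.00721 for Mxd4, lower than without it. For Max the value was higher, at 0.0873. With the block, the log2 change of Myc after TCR stimulation stayed 1.22 and 8 genes passed, but there the numbers were not shown to pair the cultures. A further 34 single-gene calls were gained or lost. Of the single-gene changes, 510 of the 560 recomputed values kept their direction and side of the threshold, and 202 of the 224 recomputed counts moved by no more than 1.5 times. The cause of these shifts was not tested. With 3 cultures a group and 15.3 estimated reads in the lowest library, changes of Mxd3 among stimulated cells were the least precise.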
